A study of Homo sapiens with 18 samples.

Results

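RNA polymerase II (Pol II) was mapped by chromatin immunoprecipitation and sequencing (ChIP-seq) in INTS11-AID cells labelled IAA+EGF and in a second library of the same cells whose deposited file name says EGF and whose title says IAA. These are 2 of the 18 libraries of the series, and each group holds 1 library, so no difference described here has a replicate check and no test was made. The cells are HCT116, a human colon cancer line, with an auxin-inducible degron on INTS11. Adding the auxin IAA makes the cell degrade the tagged protein, and EGF is epidermal growth factor. A shared protocol for all samples lists serum withdrawal (14 h), IAA (500 µM, 1 h), EGF (100 ng per µl, 30 min) and interferon beta (2000 U, 1 h), without saying which library received which step. Whether the line is 1 clone was not stated. The degron acts on the protein, so no value here checks the loss of INTS11.

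The conflict over the second library decides what the comparison is. By file names the pair is IAA+EGF against EGF, which compares INTS11 degradation with none under EGF. By titles it would be IAA+EGF against IAA, an EGF comparison. A further unnumbered library has the opposite conflict, with IAA in its file name and EGF in its title. The pair was set by file name, the second library is called EGF-named throughout, and the further library is called IAA-named. Other Pol II libraries, namely an unnumbered Control and 2 numbered replicates each of IAA and Control, are given beside the pair.

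Integrator is a complex that associates with Pol II early in transcription, and INTS11 is its endonuclease subunit. It cleaves the nascent transcripts of small nuclear RNA (snRNA) genes just past their end, and at protein-coding genes it cleaves short transcripts of promoter-proximal Pol II. Growth factors such as EGF act through the MAP kinase cascade to induce immediate early genes, among them those for the FOS, JUN and EGR transcription factors, within minutes. A peak summit marks the position of most stacked fragments. It describes where along a gene Pol II is densest, and not how much transcript is made.

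After peaks that overlapped either input library were removed, 28921 peaks remained for IAA+EGF and 33226 for the EGF-named library. The estimated depth was 8.04 fragments per kb for IAA+EGF and 7.306 for the EGF-named library, and the median stack at the summit was 36 fragments in both. Of the 15 blood, 8 fibroblast, 9 neuron and 6 muscle marker genes, 2, 0, 3 and 0 had a start peak with IAA+EGF, and 3, 0, 3 and 0 in the EGF-named library. Of 11 colon epithelial markers, 8 had a start peak in both lists, including the cell adhesion gene EPCAM, the epithelial cadherin gene CDH1 and the intestinal factor CDX2. Among blood markers, the weak peak of CD3E was found only with IAA+EGF (stack of 11 fragments), and those of HBB and CD4 only in the EGF-named library (18 and 28 fragments). In bulk chromatin, fewer cells with Pol II at a gene and less Pol II per cell cannot be told apart.

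A large difference between the lists lay at the snRNA genes. The 21 listed genes belong to the U1, U2, U4, U5, U7, U11, U12 and U4atac RNAs of splicing and histone mRNA processing. They include the U1 variants RNVU1-7 and RNVU1-18, and RNU1-27P and RNU1-28P, whose symbols mark them as pseudogenes. All 21 had a peak within 1 kb of the gene in both lists. With IAA+EGF the nearest summit lay outside the gene at all 21, at a median of 340 bp and a range of 87 to 879 bp. In the EGF-named library it lay inside 9 of the genes, at a median distance of 2 bp and at most 210 bp. The summit was therefore farther from the gene with IAA+EGF at 21 of 21.

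At RNU2-1, a U2 gene on chromosome 17 (43233790 to 43233977), the nearest summit lay 592 bp outside the gene with IAA+EGF and inside the gene in the EGF-named library. The stack there was 191 fragments with IAA+EGF and 371 in the EGF-named library. RNU5A-1, a U5 gene on chromosome 15, had its summit 364 bp away with IAA+EGF and inside the gene in the EGF-named library. RNU11, which encodes the U11 RNA of the minor spliceosome, showed 461 bp with IAA+EGF and a summit inside the gene in the EGF-named library. The 2 lists separated these genes in the same way, with the IAA+EGF summit in the flank.

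The U1 genes behaved alike but are near-identical copies, and how reads shared among copies were assigned is not given in the sources used here. RNU1-1 had its summit 342 bp away with IAA+EGF and inside the gene in the EGF-named library. At RNU1-3 the distances were 435 bp with IAA+EGF and 4 bp in the EGF-named library, and at RNU1-4 they were 420 bp and 2 bp. RNVU1-18, a variant U1 gene, had its summit 515 bp away with IAA+EGF and inside the gene in the EGF-named library. The smallest difference was at RNU5F-1, with 87 bp for IAA+EGF and 80 bp for the EGF-named library. RNU7-1, whose RNA takes part in histone mRNA end processing, showed 239 bp with IAA+EGF and 134 bp in the EGF-named library.

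RNU4-1 and RNU4-2, the U4 genes, lie side by side on chromosome 12 and shared their nearest IAA+EGF peak, so they are not separate observations. Its summit was 311 bp from RNU4-1 and 879 bp from RNU4-2 with IAA+EGF, and a separate summit lay inside each gene in the EGF-named library. The gene for the mitochondrial sirtuin SIRT4 begins next to RNU4-2 and takes the same peak.

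**Figure D1:**
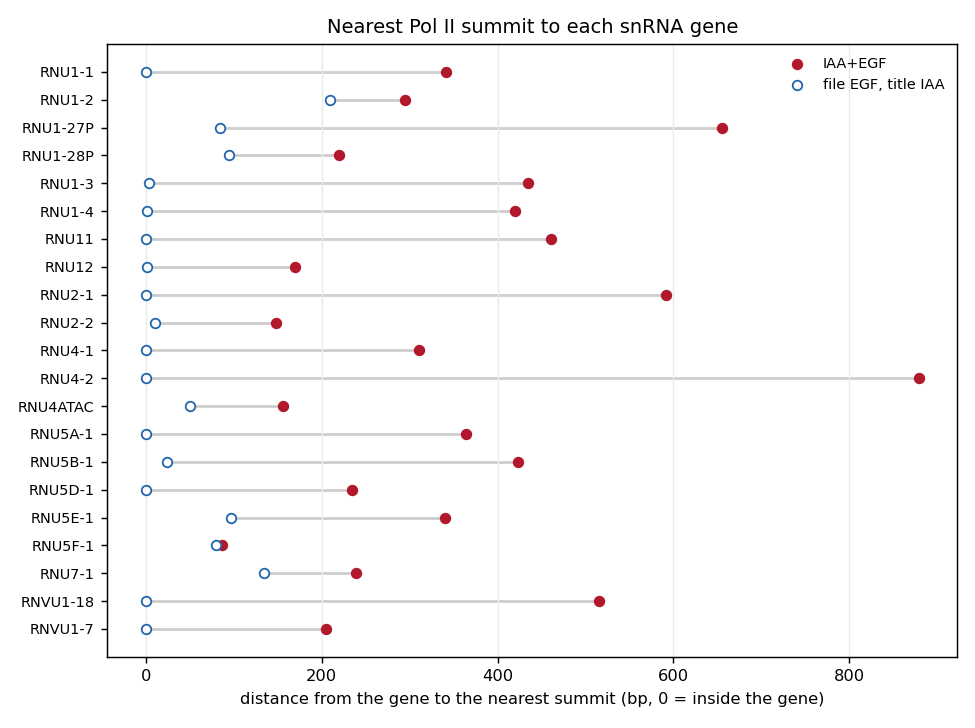
Distance in bp from each of the 21 snRNA genes (rows) to the nearest Pol II summit, with IAA+EGF as filled red points and the EGF-named library as open blue points. The red point lies farther out in every row, by little at RNU5F-1 (87 and 80 bp) and by much at RNU4-2 (879 bp and inside the gene).

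Counted at the strongest peak within 1 kb, the summit position differed by more than 100 bp at 19 of the 21 snRNA genes (90.48%), with a median difference of 329 bp. Over the 9449 protein-coding genes with a start peak in both lists and a known strand, 17.6% differed by that much. The tables used carry no strand for snRNA genes, so the direction along the gene is not given. The flank in which the IAA+EGF summit lay was that of both numbered IAA replicates at 20 of 21 genes, and RNU4-2 was the exception.

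Other libraries give the scale of this difference. The median distance over the 21 genes was 320 bp in the IAA-named library and 2 bp in the unnumbered Control. It was 631 and 480 bp in numbered IAA replicates 1 and 2, against 32 and 26 bp in numbered Control replicates 1 and 2. The 4 libraries with IAA in the file name thus had medians of at least 320 bp, and the EGF-named library and the 3 Controls of at most 32 bp. Set by title, with IAA+EGF against the IAA-named library, 5 of 21 genes differed by more than 100 bp, beside 15.4% of all genes, and the median difference was 34 bp.

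Peaks at the snRNA genes also ranked lower with IAA+EGF. When both lists were cut to their 28921 strongest peaks by −log10 q, the rank was lower at 21 of 21 genes. The median difference was -3.586 percentile points, beside 0.0657 over protein-coding genes, and no snRNA gene differed by over 20 points. Numbered replicates of the same label also differed in this direction. The rank was lower at 20 of 21 genes for Control replicate 2 against replicate 1 (median -0.3202 points). For IAA replicate 2 against replicate 1 it was lower at 13 of 13 (-4.637 points). In the uncut lists the median rank was 1279 with IAA+EGF and 177 in the EGF-named library, where rank 1 is the strongest peak. Median stacks were 345 fragments with IAA+EGF and 380 in the EGF-named library. Those in the EGF-named library were close to its limit of 386 fragments (398 for IAA+EGF), at which tall peaks are flattened and their summits less certain. The part of this limit in the difference was not tested.

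Small RNA genes transcribed by RNA polymerase III gave different answers by the 2 measures. By the nearest summit, 9 of 11 such genes had it farther away with IAA+EGF, at medians of 384 bp with IAA+EGF and 80 bp in the EGF-named library. It lay inside 1 gene with IAA+EGF and 5 in the EGF-named library. The U6 genes RNU6-7 and RNU6-8 shared their nearest peak in each list, so they are not separate observations. RNU6-8 had 384 bp with IAA+EGF and a summit inside the gene in the EGF-named library. RN7SK, which encodes the 7SK RNA, had 396 bp with IAA+EGF and likewise a summit inside the gene in the EGF-named library. Those EGF-named summits rest on few fragments, with stacks of 15 at RNU6-8 and 16 at RN7SK. The strongest peaks within 1 kb of these genes had summits 22 and 34 bp apart between the lists. The median was 371 bp in the IAA-named library, 375 and 403 bp in the numbered IAA replicates, and 354, 356 and 240 bp in the Controls, so here the EGF-named library stood below the Controls. By the strongest peak within 1 kb, which 10 of the 11 genes had in both lists, the median summit difference was 19 bp, and 1 gene (RNU6-2, a U6 gene) differed by more than 100 bp. RN7SL1, the RNA of the signal recognition particle, had its nearest summit 249 bp away with IAA+EGF and 236 bp away in the EGF-named library. RMRP, the RNA subunit of RNase MRP, had distances of 404 bp with IAA+EGF and 391 bp in the EGF-named library. At these genes the summits differed by 13 bp between the lists.

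Among 9 independently transcribed small nucleolar and telomerase RNA genes the picture was mixed. SNORD118, the U8 RNA gene on chromosome 17, had its summit 375 bp away with IAA+EGF and inside the gene in the EGF-named library. SNORD3B-1, a U3 copy, had distances of 655 bp with IAA+EGF and 257 bp in the EGF-named library. SNORD3C, another U3 copy, had its nearest summit 1859 bp away with IAA+EGF and 89 bp away in the EGF-named library. The telomerase RNA gene TERC and SCARNA2, a guide RNA of Cajal bodies, kept a summit inside the gene in both lists. Their stacks were 184 fragments with IAA+EGF and 284 in the EGF-named library at TERC, and 251 and 318 at SCARNA2.

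At protein-coding genes summits lay farther downstream with IAA+EGF, on a far smaller scale. On 7928 genes with a start peak in all 8 Pol II lists, the median summit lay 67 bp downstream of the annotated start with IAA+EGF and 43 bp downstream in the EGF-named library. Summits at 50 to 200 bp downstream made up 50.73% of these genes with IAA+EGF and 34.42% in the EGF-named library. Those at 0 to 50 bp made up 10.12% with IAA+EGF and 25.32% in the EGF-named library. Upstream summits, at positions before the start, were similar in share, at 28.57% with IAA+EGF and 30.75% in the EGF-named library.

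**Figure D2:**
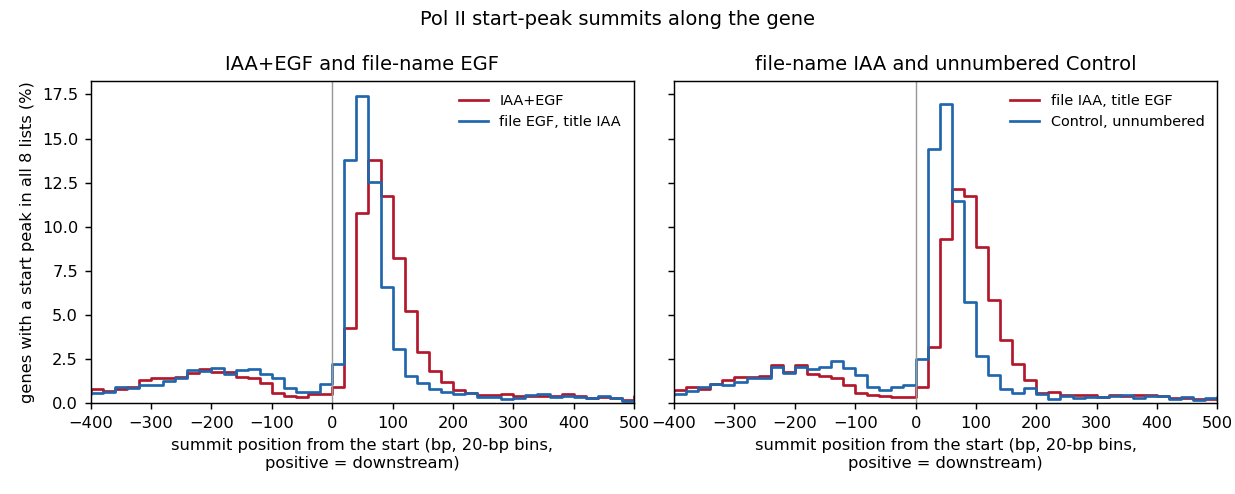
Percentage of 7928 genes (vertical axis) with the Pol II summit in each 20-bp bin from the start (horizontal axis, bp), for IAA+EGF in red and the EGF-named library in blue at left, and for the IAA-named library in red and the unnumbered Control in blue at right. In both panels the red main peak is lower, broader and farther downstream, with medians of 67 and 43 bp at left and of 70 and 39 bp at right.

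Gene by gene, the summit was displaced by a median of 13 bp downstream (95% interval of the median over genes 11 to 14 bp, which covers neither library nor culture error) at the 9449 genes. It lay farther downstream with IAA+EGF at 61.58% of them and farther upstream at 37.47%. Set by title, with the IAA-named library in second place, the median was -1 bp (interval -1 to 0 bp). The downstream median of the main pair was thus not present in that pair. Displacements of more than 100 bp downstream numbered 950 genes (10.1%), and 709 genes (7.5%) had one of more than 100 bp upstream. At the 2292 genes whose EGF-named summit lay 0 to 50 bp downstream the median displacement was 25 bp. At the 3216 genes whose EGF-named summit lay 50 to 200 bp downstream it was 14 bp. In the other bands it was negative, at -6 bp for 1628 genes with the EGF-named summit more than 200 bp upstream, -5 bp for 1335 with it up to 200 bp upstream and -3 bp for 978 with it beyond 200 bp downstream. These bands were set by 1 of the values compared, so they are given as a description.

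The displacement was close to the same at weak and strong peaks. In 4 bands of 25% of the genes each, from the weakest to the strongest by mean rank, the median was 12, 11, 13 and 14 bp. Large displacements were more frequent at weak peaks, at 17.27% downstream and 14.44% upstream in the weakest 25%, against 3.387% and 2.498% in the strongest. Where no other protein-coding start lay within 2 kb the median was 16 bp (7044 genes), and with such a neighbour it was 3 bp (2405 genes). A summit shared by divergent neighbours counts once in each direction.

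**Figure D3:**
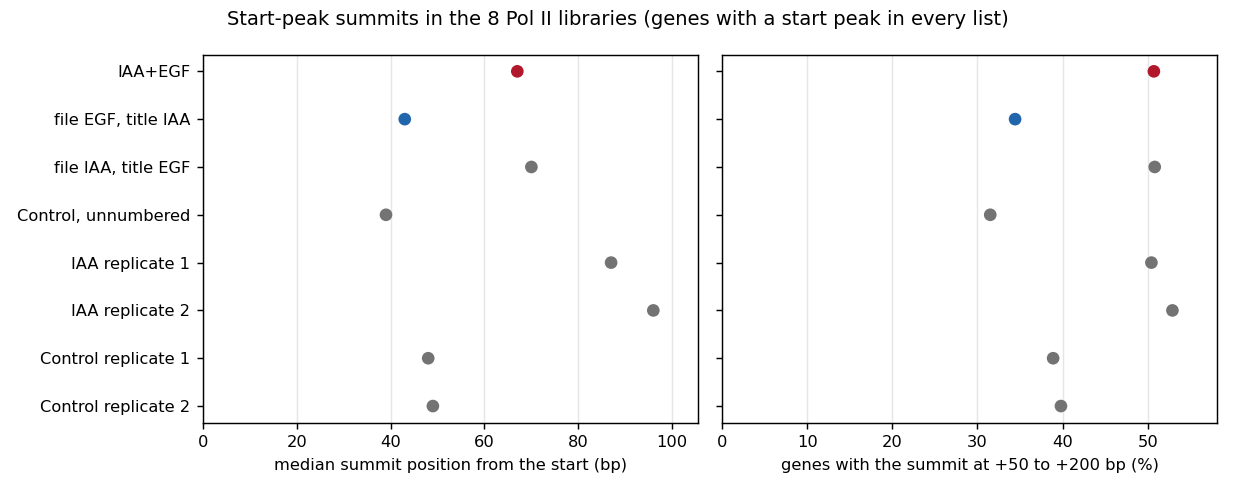
Median summit position from the start in bp (left) and percentage of genes with the summit 50 to 200 bp downstream (right) for the 8 Pol II libraries, 1 point each, over 7928 genes. IAA+EGF (67 bp) lies near the IAA-named library (70 bp), while the EGF-named library (43 bp) lies near the Controls (39, 48 and 49 bp).

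The pairs without the EGF-named library gave these values. The IAA-named library against the unnumbered Control had a median displacement of 16 bp, with 11.8% of genes over 100 bp downstream and 8.23% upstream. Numbered IAA against Control gave 25 bp for replicate 1 and 32 bp for replicate 2, with 18.4% and 19.4% over 100 bp downstream and 15.6% and 16.1% upstream. Differences between numbered replicates of the same label were smaller. Control replicate 2 against replicate 1 gave 0 bp (8.2% downstream and 7.62% upstream) and IAA replicate 2 against replicate 1 gave 3 bp. The 13 bp of the main pair exceeds both differences between numbered replicates, which have lower depths of 2.947 to 6.061 fragments per kb. Numbered and unnumbered libraries of 1 label were farther apart, with median positions of 70 bp in the IAA-named library and 87 and 96 bp in the numbered IAA replicates, and of 39 bp in the unnumbered Control and 48 and 49 bp in the numbered ones. The gaps between IAA libraries are thus about as large as that between the 67 bp of IAA+EGF and the 43 bp of the EGF-named library. A percentage of genes displaced by more than 100 bp does not separate so clearly. It was 17.6% in the main pair, against 15.8% between the Controls and 18.4% between the IAA replicates. The shortest peak width, which follows the fragment length used in calling, was 199 bp for IAA+EGF and 193 bp for the EGF-named library, and its part in the displacement was not tested.

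The 950 genes displaced downstream can be followed in the other pairs, which share no library with this pair. Of the 926 with a start peak in both the IAA-named library and the unnumbered Control, 37.04% were also displaced by more than 100 bp downstream there, and 9.611% upstream. Of all 9340 genes with such peaks, 11.63% were displaced downstream. In numbered replicates 1 and 2 the same genes gave 35.33% and 37.28% downstream, beside 18.32% and 19.32% of all genes. Between the numbered Controls they gave 13.02% in each direction, beside 8.019% downstream and 7.55% upstream of all genes. The 709 genes displaced upstream also recurred in their own direction. Of the 695 with start peaks in both the IAA-named library and the unnumbered Control, 32.81% were displaced upstream there, beside 8.105% of all genes. In numbered replicates 1 and 2 they gave 37.8% and 37.62% upstream, beside 15.47% and 15.87% of all genes. Between the numbered Controls they gave 15.55% upstream and 15.4% downstream.

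Individual genes with large displacements mostly carried separate summits on either side of the start used. At PDCD10 (a scaffold protein gene on chromosome 3) the IAA+EGF summit was at 147 bp and the EGF-named summit at -866 bp, on the other side of the start. This peak region is shared with the divergent SERPINI1 (a serpin family gene), whose own displacement was upstream by the same 1013 bp. EIF3B, a translation initiation factor gene, had its summit at 104 bp with IAA+EGF and at -837 bp in the EGF-named library. The table starts used for EIF3B and PEAK1 lie inside the annotated genes. Their EGF-named summits, upstream of those starts, therefore lay near where the annotated genes begin. At EIF3B both numbered IAA replicates had their summits upstream, at -840 and -850 bp, as did both numbered Controls. PEAK1, a pseudokinase gene, had its summit at 93 bp with IAA+EGF and at -900 bp in the EGF-named library, and at 101 bp in the IAA-named library. The numbered Controls lay on the side of IAA+EGF at PEAK1, at 58 and 51 bp, and so did the unnumbered Control (77 bp) and Control replicate 2 (97 bp) at PDCD10. DSTN, the gene of the actin-depolymerising protein destrin, had 86 bp with IAA+EGF and -858 bp in the EGF-named library. Its peak region is shared with the divergent BFSP1, displaced by -944 bp, whose EGF-named summit lay 3 bp from the BFSP1 start. At DSTN all of the 3 Controls had 62 to 75 bp, on the side of IAA+EGF. MLEC and TES were displaced downstream by 858 and 806 bp, and PLK4, the centriole duplication kinase gene, by 911 bp. Displacements upstream were led by ARL6IP6 (-1303 bp) and FMC1-LUC7L2 (-1049 bp). At MLEC and PLK4 no other Pol II list placed the summit where IAA+EGF had it, so these displacements rest on the IAA+EGF library. At TES the IAA+EGF summit lay at 852 bp and the EGF-named summit at 46 bp, while the other 6 Pol II libraries lay at 807 to 899 bp, on the side of IAA+EGF.

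Immediate early genes, the first transcriptional targets of EGF, had start peaks in both lists at 53 of 58, and 3 had none in either list. The summit was farther downstream with IAA+EGF at 30 of the 40 with a known strand, beside 61.58% of all genes, with a median of 15 bp beside 13 bp over all genes. Set by title the median of this list was 1 bp. JUND and NR4A1 exceeded 100 bp downstream and none exceeded 100 bp upstream, so 5% of the list passed that limit beside 17.6% of all genes. The 300-base windows of 3 of them (FOS, JUNB and EGR1) and of DUSP1, a MAP kinase feedback gene, are shown because their summits are compared next. Each is from RefSeq on GRCh38.p14 and runs in the direction of transcription from 250 bases before the start, with the first 50 transcribed bases in capitals. FOS is at chr14:75278578-75278877 (plus strand), JUNB at chr19:12791236-12791535 (plus strand), EGR1 at chr5:138465229-138465528 (plus strand) and DUSP1 at chr5:172771146-172771445 (minus strand).
FOS: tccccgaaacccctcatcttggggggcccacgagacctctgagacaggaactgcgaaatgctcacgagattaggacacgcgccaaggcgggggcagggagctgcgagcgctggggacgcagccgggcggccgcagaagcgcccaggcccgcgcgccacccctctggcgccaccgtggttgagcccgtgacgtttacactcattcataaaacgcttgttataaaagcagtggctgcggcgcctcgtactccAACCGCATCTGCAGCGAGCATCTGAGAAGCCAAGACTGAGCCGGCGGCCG
JUNB: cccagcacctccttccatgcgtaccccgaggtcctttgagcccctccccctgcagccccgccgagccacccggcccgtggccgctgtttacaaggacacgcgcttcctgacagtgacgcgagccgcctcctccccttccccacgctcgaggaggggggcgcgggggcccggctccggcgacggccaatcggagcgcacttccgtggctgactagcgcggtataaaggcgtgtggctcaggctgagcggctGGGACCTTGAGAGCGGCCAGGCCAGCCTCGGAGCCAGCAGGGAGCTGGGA
EGR1: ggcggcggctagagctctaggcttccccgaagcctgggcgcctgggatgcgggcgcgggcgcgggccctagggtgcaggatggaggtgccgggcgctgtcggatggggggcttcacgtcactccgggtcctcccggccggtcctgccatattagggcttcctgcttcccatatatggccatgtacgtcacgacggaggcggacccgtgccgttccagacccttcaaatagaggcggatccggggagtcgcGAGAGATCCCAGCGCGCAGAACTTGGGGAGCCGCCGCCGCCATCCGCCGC
DUSP1: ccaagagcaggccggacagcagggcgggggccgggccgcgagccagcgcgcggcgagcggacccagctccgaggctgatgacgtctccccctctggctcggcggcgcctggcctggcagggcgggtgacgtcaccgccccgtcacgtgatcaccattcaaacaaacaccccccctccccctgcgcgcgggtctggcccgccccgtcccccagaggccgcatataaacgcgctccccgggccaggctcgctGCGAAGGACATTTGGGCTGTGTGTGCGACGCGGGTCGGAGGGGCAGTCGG

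The capitals hold the EGF-named summit of each of these genes, and the IAA+EGF summit lies beyond their last base. The motif TATAAA begins at position -33 in FOS, -31 in JUNB and -30 in DUSP1 on the strand shown, and the EGR1 window has none on either strand. Of all 15813 windows 9.751% hold TATAAA or its reverse complement TTTATA. The EGR1 window holds 2 CArG boxes, the motif bound by serum response factor, found in 1.214% of all windows. A match is a description of these letters and not of binding.

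FOS, which encodes the AP-1 subunit c-Fos, had its summit 73 bp downstream with IAA+EGF and 46 bp downstream in the EGF-named library. In the IAA-named library it lay at 69 bp and in the unnumbered Control at 39 bp. Numbered IAA replicates had 78 and 94 bp, and numbered Controls 38 and 37 bp. All 4 libraries with IAA in the file name thus lay at or above 69 bp, and the EGF-named library and the 3 Controls at or below 46 bp.

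DUSP1, a phosphatase gene that limits MAP kinase signalling, showed the same split. Its summit lay at 87 bp with IAA+EGF and 35 bp in the EGF-named library. It lay at 71 bp in the IAA-named library and at 102 and 89 bp in the numbered IAA replicates. The unnumbered Control had 33 bp and the numbered Controls 28 and 35 bp. At JUNB, another AP-1 subunit gene, the summit was at 66 bp with IAA+EGF and 35 bp in the EGF-named library. The other libraries with IAA in the file name had 42, 46 and 60 bp there, and the Controls 30, 27 and 21 bp, so the groups did not overlap.

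EGR1, a zinc finger transcription factor gene, separated less well. Its summit was at 58 bp with IAA+EGF and 44 bp in the EGF-named library, with 41, 46 and 77 bp in the other IAA files and 29 to 39 bp in the Controls. FOSB had 62 bp with IAA+EGF and 31 bp in the EGF-named library, with 40, 62 and 62 bp in the other IAA files and 26 to 31 bp in the Controls. JUN had 54 bp with IAA+EGF and 33 bp in the EGF-named library, while numbered Control replicate 2 reached 60 bp. Differences of this size are near the spread of single genes, since the middle 50% of genes lay between -22 and 23 bp when the numbered Controls were set against each other.

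Stacks at these genes were not larger with IAA+EGF as a group. FOS had 305 fragments with IAA+EGF and 356 in the EGF-named library, EGR1 212 and 358, JUNB 291 and 358, and FOSB 230 and 219. Within the lists cut to equal length, FOS differed by 0.197 percentile points and EGR1 by 17.6 points, ranking higher with IAA+EGF. At EGR1 the deposited fold over local background was 3.66 with IAA+EGF and 2.32 in the EGF-named library, although its stack was lower with IAA+EGF. The median difference over 53 immediate early genes was 0.671 points. MYC and FOSL1, both growth-associated transcription factor genes without a strand in the promoter table, had 262 and 252 fragments with IAA+EGF and 308 and 289 in the EGF-named library. KLF6 had its summit at -410 bp with IAA+EGF and -409 bp in the EGF-named library, and ATF3 had no start peak in either. IER3 had 300 fragments with IAA+EGF and 371 in the EGF-named library.

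A few immediate early genes stood apart. IER2 was called only with IAA+EGF, with a summit 13 bp downstream of its start, a stack of 159 fragments and a deposited fold of 1.98 over local background. No EGF-named peak lay within 1 kb of that start, and the EGF-named list had summits 1236 and 2673 bp downstream, near which IAA+EGF also had summits. The IAA-named library and both numbered IAA replicates had a summit within 20 bp of the IER2 start, and none of the 3 Controls had a peak there. EDN1, the endothelin gene, was called only in the EGF-named library, with a stack of 18 fragments.

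NR4A1, an orphan nuclear receptor gene, had its summit 416 bp downstream with IAA+EGF and 232 bp in the EGF-named library, with stacks of 29 and 53 fragments. The IAA-named library had 938 bp there, the numbered IAA replicates 258 and 261 bp, and the Controls 249, 242 and 275 bp. JUND had 158 bp with IAA+EGF and 46 bp in the EGF-named library, with stacks of 137 and 304 fragments. The other IAA files had 39, 143 and -53 bp at JUND, and the Controls 34, 58 and 38 bp. EGR3 had 28 fragments with IAA+EGF and 62 in the EGF-named library. Its rank differed by -26.2 percentile points (IAA+EGF minus EGF-named), and that of NR4A1 by -34.8 points. NR4A3 and VGF, a neurotrophin-induced secretory gene, ranked 22.9 and 45.2 points higher. VGF had 63 fragments with IAA+EGF and 34 in the EGF-named library.

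**Figure D4:**
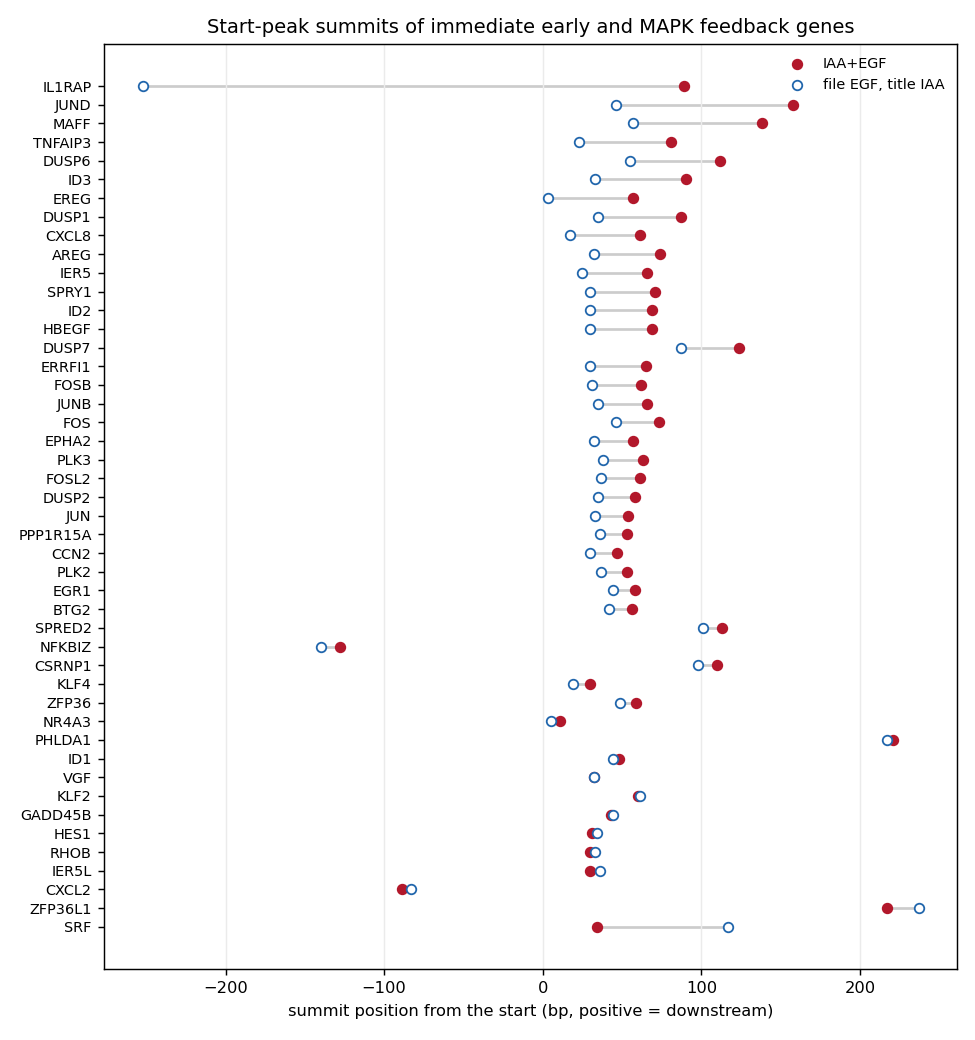
Summit position from the start in bp for 46 immediate early and MAP kinase feedback genes (rows, ordered by displacement) whose summits lay within 300 bp of the start in both lists, with IAA+EGF as filled red points and the EGF-named library as open blue points. The red point lies farther downstream in 37 of the 46 rows, as at FOS (73 and 46 bp) and DUSP1 (87 and 35 bp). Of all genes 61.58% lay farther downstream, but without the 300 bp limit, and the share of all genes within that limit was not computed.

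The feedback regulators of MAP kinase signalling had start peaks in both lists at 20 of 22 genes, with a median displacement of 35 bp over 15 and 13 of these 15 downstream, beside 61.58% of all genes. The IAA-named library against the unnumbered Control gave 17 bp, with 9 of 15 downstream. Numbered IAA against Control gave 9 bp (7 of 12 downstream) for replicate 1 and 28 bp (11 of 15) for replicate 2. DUSP6, a phosphatase specific for ERK, had its summit at 112 bp with IAA+EGF and 55 bp in the EGF-named library. SPRY4, an inhibitor of receptor tyrosine kinase signalling, had it at -724 bp with IAA+EGF and -741 bp in the EGF-named library. DUSP10 and IL1RAP exceeded 100 bp downstream, and SPRED1, a RAS pathway inhibitor, exceeded it upstream at -247 bp, beside 17.6% of all genes over 100 bp either way. Genes of EGF receptors, ligands and adaptors had a median of 33 bp over 12 genes. EGFR had its summit at 78 bp with IAA+EGF and 63 bp in the EGF-named library. At ERBB2, a partner receptor of EGFR, it lay at 128 bp with IAA+EGF and at -125 bp in the EGF-named library. The ligand gene BTC was displaced by -425 bp.

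**Figure D5:**
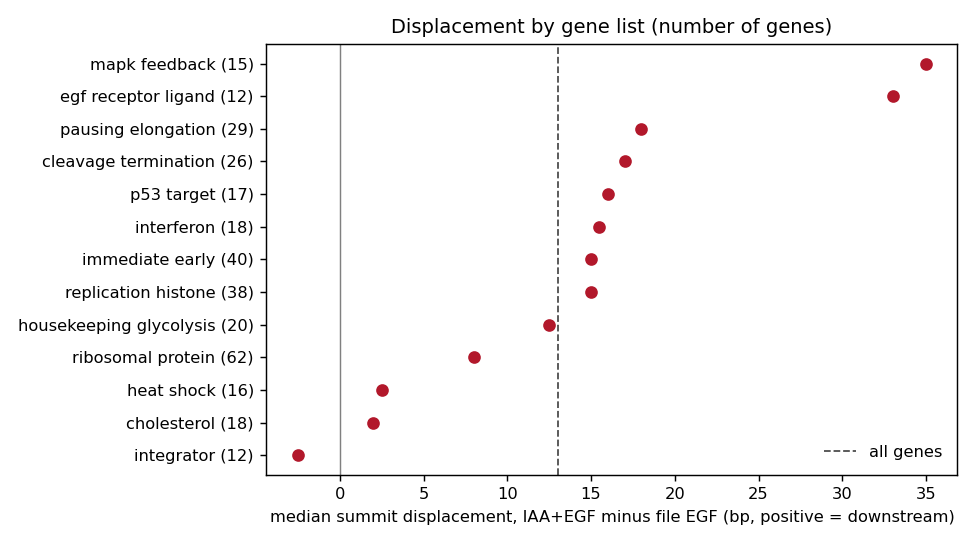
Median summit displacement in bp, IAA+EGF minus the EGF-named library, for gene lists with at least 10 genes of known strand (number of genes in parentheses); the dashed line is the median of all genes, 13 bp. Lists run from 35 bp for MAP kinase feedback genes to -2.5 bp for Integrator subunits, and most lie within a few bp of the dashed line.

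Other lists lay near the median of all genes or below it. The 62 ribosomal protein genes with a strand had a median of 8 bp, with 48 farther downstream, beside 61.58% of all genes, and none displaced by more than 100 bp, beside 17.6% of all genes. The 12 Integrator subunit genes had a median of -2.5 bp. INTS11 itself, on chromosome 1, had its summit at 72 bp with IAA+EGF and 68 bp in the EGF-named library, and INTS12 at -260 and 57 bp. GAPDH, a glycolytic enzyme gene, had -708 bp with IAA+EGF and -715 bp in the EGF-named library, measured from a table start that lies inside the annotated gene. ACTB, the beta-actin gene, had 210 fragments with IAA+EGF and 302 in the EGF-named library. ALDOA, an aldolase gene, was displaced by 151 bp downstream.

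Genes of pausing and elongation factors had a median of 18 bp over 29, and 7 of them (24.14%) exceeded 100 bp either way, beside 17.6% of all genes. The 4 downstream were CCNT2 and CTR9, a P-TEFb cyclin and a PAF complex gene, MEPCE, which caps the 7SK RNA, and RTF1. The 3 upstream were NELFB, a subunit of the pausing factor NELF, ELL and LEO1. Cleavage and termination factor genes had a median of 17 bp over 26, with CPSF4, CSTF1, FIP1L1 and PAPOLA over 100 bp downstream and NUDT21 upstream. SCAF8, a member of this list, was called only in the EGF-named library. The nearest IAA+EGF summit was 1012 bp from the start and the EGF-named summit 970 bp, on either side of the 1 kb limit.

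Replication-dependent histone genes, whose transcripts end in a stem loop, had a median of 15 bp over 38. Of these, 3 (7.895%) exceeded 100 bp either way, beside 17.6% of all genes. At the linker histone gene H1-2 the summit was at 869 bp with IAA+EGF and 80 bp in the EGF-named library, and at H1-4 it was at 842 and 64 bp. Both numbered IAA replicates lay at 827 to 939 bp at these genes, and every Control that had a peak lay at 46 to 74 bp. The gene bodies are short, so summits at such distances lie near or past the gene ends. H4C8 was displaced upstream, with -919 bp for IAA+EGF and -25 bp for the EGF-named library. H2BC5 and H3C14 were called only with IAA+EGF, although broad EGF-named peaks covered both starts with summits at -1728 and -1506 bp.

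Interferon-stimulated genes had start peaks in both lists at 23 of 27, and 5 of 18 (27.78%) were displaced by more than 100 bp, beside 17.6% of all genes. IFIT1, MX1, STAT2 and RSAD2 were displaced downstream and IFIT3 upstream. Apart from STAT2 their stacks were 18 to 27 fragments with IAA+EGF and 17 to 43 in the EGF-named library, so their summits rest on few fragments. IFI6 had 136 fragments with IAA+EGF and 81 in the EGF-named library, and BST2 had 35 and 68. The nuclear long noncoding RNA gene MALAT1 had its summit 691 bp farther downstream with IAA+EGF, with stacks of 110 and 126 fragments, but the numbered Controls differed there by 901 bp. NEAT1, the scaffold RNA gene of paraspeckles, had 243 fragments with IAA+EGF and 331 in the EGF-named library, with summits 33 bp apart.

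Of the remaining lists, heat shock genes had a median of 2.5 bp over 16 and cholesterol synthesis genes 2 bp over 18. The p53 targets had a median of 16 bp over 17 and glycolysis and other housekeeping genes 12.5 bp over 20. HSF2, TIGAR and INSIG1 were displaced upstream by more than 100 bp. Each was the only such gene of its list, of 16, 17 and 18 genes, beside 7.5% of all genes. HSPA1A, an inducible chaperone gene with a near-identical copy, had 35 fragments with IAA+EGF and 22 in the EGF-named library. KRT8, a keratin gene, was displaced upstream and the neuronal SYT1 downstream, by -653 and 278 bp. RBFOX3 ranked 27.7 points higher with IAA+EGF on stacks of 16 and 11 fragments.

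Start peaks themselves were largely shared. Both lists had a start peak at 11529 protein-coding genes, IAA+EGF alone had 192 (1.59% of the 12099 with either) and the EGF-named library alone had 378 (3.12%). With lists of equal length the counts were 246 and 295. Between libraries of 1 label the counts were 410 and 127 between the numbered Controls (3.44% and 1.07%) and 1168 and 171 between the IAA replicates (10.4% and 1.53%). Genes with a peak in only 1 list had median stacks of 24 fragments with IAA+EGF and 21 in the EGF-named library. Presence was read from summits, so a broad peak can cover a start whose gene is called absent. A peak of the other list covered the start at 22 of 137 stranded genes called only with IAA+EGF and at 15 of 263 called only in the EGF-named library.

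The strongest calls of this kind mostly had a neighbouring peak in the other list. Among genes called only in the EGF-named library, S100A1 had its nearest IAA+EGF summit at -1005 bp and its EGF-named summit at -974 bp. SLC2A11 had 1037 bp with IAA+EGF and 993 bp in the EGF-named library, and FNBP4 had -1007 bp with IAA+EGF and -353 bp in the EGF-named library. TBCC, a tubulin folding cofactor gene, had its nearest IAA+EGF summit at -1185 bp, and its EGF-named summit at 54 bp with 159 fragments. PHPT1, a histidine phosphatase gene, had -1384 bp with IAA+EGF and 42 bp in the EGF-named library. ING1 and ADGRF3 completed the 8 highest-ranked. S100A1 and SLC2A11 cross the 1 kb limit by under 50 bp. Broad IAA+EGF peaks of 1738 bp at TBCC and 1896 bp at PHPT1 covered the starts of both genes.

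Among genes called only with IAA+EGF, CRLS1 had its summit at -978 bp and the nearest EGF-named summit was at -1109 bp. NDUFAF3, a complex I assembly factor gene, had 980 bp with IAA+EGF and 1012 bp in the EGF-named library. PLEKHG2 had its IAA+EGF summit at -412 bp with 168 fragments, and the nearest EGF-named summit was at -3101 bp. PLEKHG2 also had a summit between -392 and -421 bp in the IAA-named library and all 4 numbered libraries. FLOT1, a flotillin gene, had 32 bp with IAA+EGF, and a broad EGF-named peak with its summit at -1806 bp covered the start. PPM1L and WDR88 were also among the 8.

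The peak lists as wholes differed in length and in weak peaks. Of IAA+EGF peaks 85.65% overlapped a peak of the EGF-named list, and 73.06% of EGF-named peaks overlapped a peak of the IAA+EGF list. Peaks without a partner had median stacks of 15 fragments with IAA+EGF and 17 in the EGF-named library. Summits within 1 kb of a protein-coding start made up 40.61% of IAA+EGF peaks (95% exact binomial interval 40.05 to 41.18%) and 36.13% of EGF-named peaks (35.61 to 36.65%), for counting error only. Their numbers were 11746 and 12004. When the lists were cut to equal length the share in the EGF-named list was 40.12%, inside the interval of IAA+EGF. Peaks inside gene bodies numbered 7323 with IAA+EGF and 9123 in the EGF-named library. Among 11552 genes of at least 10 kb, 5.618% had a peak 1 to 5 kb into the gene with IAA+EGF, against 6.38% in the EGF-named library, 3.411% and 4.493% in numbered IAA and 4.501% and 5.376% in numbered Control.

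Ranks of start peaks were compared within the equal-length lists. Of 11475 genes, 237 (2.07%) ranked more than 20 percentile points higher with IAA+EGF and 276 (2.41%) ranked that much lower, beside 3.5% and 2.78% between the numbered Controls. The counts depend on the ranking, at 625 higher and 581 lower when ranked by fold, and 105 and 513 with lists as deposited. The highest were UBTD1, CBR3 and IFI44L, an interferon-stimulated gene. UBTD1 had 113 fragments with IAA+EGF and 34 in the EGF-named library, but from summits at -593 and 43 bp, which are different positions. IFI44L had 28 fragments with IAA+EGF and 11 in the EGF-named library at summits 22 bp apart. GOLGA6L2, DAPL1 and SUSD2 followed, with 27, 22 and 60 fragments with IAA+EGF and 11, 11 and 23 in the EGF-named library.

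The lowest were ONECUT3, GRAMD4 and AQP3. ONECUT3 had 13 fragments with IAA+EGF and 120 in the EGF-named library. The peaks of ONECUT3, CBR3 and SUSD2, all without a strand in the table, can lie at opposite gene ends in the 2 lists. GRAMD4 had 19 fragments with IAA+EGF and 60 in the EGF-named library at summits 5 bp apart. AQP3, an aquaporin gene, had 17 and 36 fragments and HIVEP3 15 and 55. TLCD2 and DNAJB5 completed the 6. The genes at the extremes had few fragments in at least 1 list, apart from UBTD1.

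Promoter sequence was compared between displaced genes and the rest, as a description. TATAAA or its reverse complement was in 3.263% of windows of genes displaced over 100 bp downstream, 2.962% upstream and 5.276% of the 7790 others. Genes with the motif had a median displacement of 14 bp, and those without it 12 bp. GGGCGG, the core of the GC box bound by Sp factors, or its reverse complement CCGCCC was in 75.16% of windows of genes displaced downstream and 74.53% of the others, and in 58.33% of all windows. The median G and C content was 66.33% for both displaced groups and 66% for the others.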

How the data were processed

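Reads were handled with MACS2 2.2.7.1, deepTools 3.5.1, Picard 2.25.7, Bowtie2 2.3.4.1 and Trim Galore 0.6.6 on build hg38, per the submitters' processing notes. Their options and the control used in calling are not given in the sources here. Every library has its own deposited peak list, called per sample. Each deposited list gives fold enrichment (a ratio to local background), −log10 p, −log10 q, a score and the summit, which are the authors' values within that list. Fragments stacked at a summit were solved from the deposited fold and p, with a match for 99.9% to 100% of peaks (relative tolerance 0.0002), and depth from the lowest shared background and the shortest width. These estimates carry no read totals.

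Only peaks on chromosomes 1 to 22 and X entered, less those with at least 1 bp of overlap with an input peak (1579 and 1004 input peaks; 1.32% and 0.9952% removed). Of 19974 RefSeq protein-coding genes on GRCh38.p14, 15813 had a start and strand in the promoter table. The outermost start in that table was used, and it can lie inside the annotated gene. For the other 4161 either gene end served, with no direction. The start peak was the peak of highest −log10 q with its summit within 1 kb. Ranks used lists of equal length. Scripts, run with Python 3.11.15 and SciPy 1.17.1, were tested on simulated data.

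Named genes were the 8 highest-ranked genes with a start peak in only 1 list on each side, the 8 largest downstream and 4 largest upstream displacements within the strongest 25% of both lists, the 6 largest rank differences each way, and fixed genes with displaced, unshared or re-ranked members of the 22 lists. Some of these are given as counts. The members and lists were chosen with earlier results of these data known. No test was made, since each group has 1 library.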

Additional observations from a re-analysis of the deposited data

How the results depend on the processing

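No paired analysis was possible because each group has 1 library and no test was made. For the same reason no library could be left out. Of 91 recomputed values, 61 stayed within their counting interval or, for counts, within 1.5 times. Setting the pair by title, with the IAA-named library in second place, left no downstream median (interval -1 to 0 bp). The median displacement was then -1 bp, with 8.67% of genes over 100 bp downstream and 6.701% upstream, 1 bp for immediate early genes, and 5 snRNA genes over 100 bp (median 34 bp). Start peaks called only in the second list numbered 223, genes ranked higher and lower by over 20 points 117 and 164, and 42.67% of the second list lay at starts. Which assignment holds was not tested. With −log10 q of at least 5 the share of peaks at starts was 47.75% for IAA+EGF and 40.96% for the EGF-named library, and with equal lengths the EGF-named share was 40.12%. A 500 bp window gave 335 genes only with IAA+EGF, with 9.365% of genes displaced downstream and 6.228% upstream, and a 2 kb window gave 8.076% upstream. Summits nearest the start gave 10.86% downstream, a limit of 200 bp 6.35% downstream and 5.101% upstream, and the strongest 50% of both lists 8.694% and 6.577%. In an alternative chosen after seeing the data, genes without a start within 2 kb gave a median of 16 bp and 6.956% upstream. Ranked by fold, 625 genes were higher and 581 lower, and with uncut lists 105 and 513. With at least 50% of the width covered, 82.75% of IAA+EGF peaks and 67.46% of EGF-named peaks were shared. Causes were not tested. Weak peaks rest on few fragments at this depth, and stacks near the limit give less certain summits.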
